A study of Mus musculus with 1 sample.

Results

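Barcodes chosen as oligodendrocyte precursors that transcribed Pdgfra numbered 148 of the 9018 with at least 1000 detected genes in a single-cell library of newborn mouse cerebral cortex, a share of 1.64% (95% interval 1.39 to 1.93). The members were chosen by their counts of 5 genes, and 120 of them also held a UMI of Sox10 or Cspg4, the precursor genes outside the rule, so that the others carry the name by the rule alone. A barcode, which stands for 1 droplet, had to hold at least 2 UMIs (unique molecular identifiers, 1 per captured transcript) of Pdgfra, at least 1 UMI of Olig1 and Olig2 together, and at most 1 UMI of Gad1 and Gad2, the GABA-synthesizing enzymes of inhibitory neurons, together. The study examined how human SERPINA3 shapes the cortex and compared wildtype with conditional knock-in mice. Only the wildtype library, from C57BL/6 cortex at postnatal day 0 (P0), was analysed here, and its label gives the genotype as Wildtype. Neither the number of pups pooled nor their sex was given in the sources used here. With 1 library there is no replicate, so no difference below was tested. Every interval covers counting error only, and it says nothing about the spread between animals.

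Oligodendrocyte precursors, also called NG2 glia, are the dividing cells from which the myelin-forming oligodendrocytes of the brain arise. Their receptor for platelet-derived growth factor, PDGF receptor alpha, receives a mitogen released by neurons and astrocytes that keeps precursors dividing and holds back their maturation. Olig1 and Olig2 are basic helix-loop-helix transcription factors of the lineage, Sox10 is the HMG-box factor that works with Olig2 to set oligodendrocyte identity, and Cspg4 encodes the NG2 proteoglycan of the precursor surface. In the mouse forebrain these cells come in successive waves from ventral and then dorsal progenitors, and at birth the cortex holds many precursors but almost no myelin.

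The library held 90346034 UMIs over 11062 barcodes. The 148 members carried 1584 to 46108 UMIs each, with a median of 7670.5 UMIs and 3342 genes, close to the median of 8512 UMIs in the 8870 other barcodes. UMIs of Y-linked genes were found in 127 members and Xist in 0. Mitochondrial genes took a median of 2.87% of a member's UMIs. Levels are given as CPM, the UMIs of a gene summed over the barcodes of a class per 1000000 summed UMIs of nuclear genes, with the exact Poisson 95% interval in parentheses. The same gene is compared between classes, and levels of different genes are not ranked. A gene is called higher or lower where the ratio of (CPM + 10) between classes was at least 2 or at most 0.5, among genes with at least 50 UMIs over both classes, and a fold itself is the plain ratio of CPM with its exact interval.

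Pdgfra itself, the value that chose the members, ran from 2 to 21 UMIs with a median of 7. Of the members, 21 held 2 Pdgfra UMIs, 14 held 3, 35 held 4 to 6 and 78 held at least 7. Both Olig genes were detected in 134 members, Olig1 alone in 10 and Olig2 alone in 4. Just outside the line, 23 barcodes that met the other conditions held 1 Pdgfra UMI. Another 17 barcodes with at least 2 Pdgfra UMIs had no UMI of either Olig gene, and 13 with an Olig UMI were removed because they held at least 2 UMIs of Gad1 and Gad2. These numbers describe the choice and carry no test.

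The label was checked against genes that the rule did not use. Sox10 was at 226 CPM (201 to 253) in the members and 0.596 CPM in all other barcodes, 379-fold (281 to 522) higher. It was detected in 108 of the 148 members, with a lowest, median and highest value of 0, 2 and 9 UMIs. Cspg4 was at 229.8 CPM (205 to 257) against 2.01 CPM, and 94 members held a UMI of it. Either gene was found in 120 members, or 81.1% (73.8 to 87.05), and both in 82. The 6156 excitatory neurons of the library, which should lack both, were chosen by at least 5 UMIs of Neurod2 and Neurod6 together. They held no Pdgfra or Olig UMI, at most 1 Gad UMI and fewer than 3 UMIs of the cycle genes Top2a, Mki67 and Cenpf. There Sox10 was at 0.121 and Cspg4 at 0.272 CPM, with a UMI in 0.130% and 0.227% of barcodes, at a median depth of 9667 UMIs. Because this choice left out barcodes with any Pdgfra or Olig UMI, these levels are no unselected background. Both genes in the members stood far above them and above all other barcodes, and the label holds for the 81.1% that held either.

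Markers of other cell types that can transcribe Pdgfra or Cspg4 were close to absent. Meningeal fibroblasts also make Pdgfra, but all 7 of their other markers, among them Col1a1, Col3a1, Dcn and Lum, were at 0 in the members, which allows a summed level of up to 2.74 CPM. Pericytes also make Cspg4, yet Rgs5, Kcnj8 and Abcc9 were at 0 and Vtn was at 0.744 CPM. The 8 microglial markers summed to 1.49 CPM (0.180 to 5.37) in the members, with 7 at 0, and the 6 endothelial ones to 2.98 CPM (0.811 to 7.62), with 4 at 0. Neuronal transcripts were the exception. Neurod2 and Neurod6, factors of excitatory neurons, summed to at least 5 UMIs in 20 members, and these had a median depth of 19124 UMIs. Scrublet, which simulates pairs of barcodes to find doublets, marked 14 of these 20 and 17 of all 148 members, or 11.5% (6.84 to 17.8), against 6.08% of the other barcodes. Stmn2, a tubulin regulator of neurons, was at 525 CPM (487 to 565) in all members and at 87.3 CPM (65.2 to 115) in the 82 members without a Neurod2 or Neurod6 UMI, whereas Sox10 was at 307 CPM in those 82. Neuronal levels in the members are therefore given with this in view, and the part that doublets and free RNA play in them was not tested.

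Against all other barcodes, 669 of 16505 genes were higher in the members, or 4.05%, and 551 were lower, or 3.34%. Without the 20 members that held at least 5 UMIs of Neurod2 and Neurod6, 843 were higher and 927 lower. By the ratio of (CPM + 10) the most enriched transcript was Lhfpl3, a tetraspan membrane protein of precursors, at 391 CPM (358 to 425) against 5.52 CPM, 70.7-fold (62.3 to 80.3) higher. C1ql1, a secreted C1q-related protein, followed after Sox10 and Cspg4 and was 111-fold (86.8 to 143) higher. Among the 30 most enriched genes stood further transcription regulators, among them Chd7, Zeb1, Sox6, Sox8, Sox9 and Sall3. Chd7, a chromatin remodeller, was 15.1-fold (13.7 to 16.7) higher and was detected in 91.9% of members. Smoc1, a secreted calcium-binding protein, was 29.4-fold (24.5 to 35.2) higher, and Enpp2, which makes lysophosphatidic acid, was 40.8-fold (32.4 to 51.1) higher. Ednrb, the endothelin B receptor, was at 319.9 CPM (290.3 to 352) against 16.2 CPM. Ednrb was not called higher than in Olig-positive barcodes without Pdgfra or in radial glia and astrocytes, both described below. The 4 haemoglobin genes of red blood cells summed to 6.69 CPM in the members and 202 CPM in the rest. They were as low in Olig-positive barcodes without Pdgfra, at 5.90 CPM (3.05 to 10.3), and in radial glia and astrocytes, at 5.02 CPM (2.02 to 10.3). Apart from genes found in under 25% of the rest, those lowest in the members were neuronal: Nrgn, Islr2, Shtn1, Stmn2 and Npy headed them, and Nrgn, a calmodulin-binding protein, was 7.07-fold (5.44 to 9.36) lower.

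The promoter of Lhfpl3 is shown because it was the gene with the largest enrichment, that of Pdgfra because it chose the members, and that of Dll3 because it was among the genes that set the members most apart from radial glia. Each is 300 bases, 250 before and 50 after the transcription start, taken from RefSeq on build GRCm38.p6, while the submitters' processing notes name build mm9. Capitals mark CAGCTG, an E-box that reads the same on both strands and to which basic helix-loop-helix factors can bind.
Pdgfra, chr5:75152001-75152300, plus strand: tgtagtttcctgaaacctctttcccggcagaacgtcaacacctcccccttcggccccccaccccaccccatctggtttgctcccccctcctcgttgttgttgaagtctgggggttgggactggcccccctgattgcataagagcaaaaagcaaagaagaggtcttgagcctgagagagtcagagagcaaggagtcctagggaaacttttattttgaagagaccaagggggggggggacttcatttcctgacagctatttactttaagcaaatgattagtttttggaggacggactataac
Lhfpl3, chr5:22745804-22746103, plus strand: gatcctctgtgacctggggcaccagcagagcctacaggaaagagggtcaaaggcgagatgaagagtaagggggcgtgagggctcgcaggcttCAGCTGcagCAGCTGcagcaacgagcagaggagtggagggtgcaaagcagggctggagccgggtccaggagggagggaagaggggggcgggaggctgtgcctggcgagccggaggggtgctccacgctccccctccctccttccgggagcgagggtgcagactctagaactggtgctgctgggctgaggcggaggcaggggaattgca
Dll3, chr7:28301736-28302035, minus strand: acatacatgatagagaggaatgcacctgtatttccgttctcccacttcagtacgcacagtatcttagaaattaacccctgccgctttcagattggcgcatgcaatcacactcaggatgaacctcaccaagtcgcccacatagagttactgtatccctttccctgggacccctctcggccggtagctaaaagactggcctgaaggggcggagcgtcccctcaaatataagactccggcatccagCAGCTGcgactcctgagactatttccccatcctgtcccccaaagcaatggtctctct
The Lhfpl3 window held this E-box 2 times, that of Dll3 1 time and that of Pdgfra 0 times. Over 32851 RefSeq promoter windows of the same length, 16.3% held it. Of the 30 most enriched genes, 17 had a window in the table (24 windows). The E-box stood in a window of 5 of these 17 genes, namely Lhfpl3, Rasl11a, S100a16, Sox6 and Tril. ACAAAG or its reverse CTTTGT, letters that SOX factors can bind, stood in 18.7% of all windows and in those of 2 of the 17 genes, Serpine2 and Sox6. The counts of genes, where any window of a gene sufficed, are not in the same unit as the shares of single windows. A match describes the letters of these windows and is no binding site by itself.

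The transcription factors of the lineage were described as a list of 20 genes. Against all other barcodes 11 of the 18 with enough UMIs were higher and 2, Nfix and Zeb2, were lower, with a list median of 1.83 on the log2 scale against 0.00 over all genes. Over all genes 4.05% were higher and 3.34% lower. Sox9, shared with astrocytes, was at 416 CPM (382 to 452) and Sox6, which delays differentiation, at 215 CPM (191 to 241). Tcf7l2, an effector of WNT signalling in maturing oligodendrocytes, was at 29.8 CPM (21.3 to 40.5), with a UMI in 32 members. Nkx2-2, a factor that appears as precursors mature, was at 13.4 CPM (7.94 to 21.2) and was detected in 14 members.

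Of the 21 measured genes for surface and matrix proteins of precursors, 18 were higher than in the other barcodes and 0 were lower, with a median of 2.21 (log2). The share of higher genes over all genes was 4.05%. Serpine2, a secreted protease inhibitor, was at 414 CPM (381 to 450.2) against 36.2 CPM, and Bcan, the core of the brevican proteoglycan, at 382 CPM (349 to 416) against 23.2 CPM. Serpine2 was also called higher than in Olig-positive barcodes without Pdgfra and in radial glia and astrocytes, whereas Bcan was called higher than in neither. Cntn1, an adhesion molecule that binds receptor phosphatases, was 5.21-fold (4.72 to 5.75) higher. Pcdh15, a cadherin-family protein best known from hair cells, was at 119.8 CPM (102 to 139.8), and Matn4, a matrix adaptor, at 49.1 CPM (37.97 to 62.5) against 1.42 CPM. Ptprz1, a receptor phosphatase that radial glia also carry, was detected in 99.3% of members. Tnc, the tenascin of radial glia, was at 17.9 CPM and was not among the genes called. Neu4, a sialidase of precursors, was seen in 1 member.

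Most myelin genes were at or near 0 in the members. Mog, Mobp and Mal, which mark myelinating cells, were at 0 UMIs in all 148 members, which allows up to 2.23 CPM (3 counts), and at no more than 0.846 CPM in the other barcodes. Opalin and Aspa were at 0 in the members and in all 8870 other barcodes alike, so their zeros set the members apart from nothing. Enpp6, a marker of newly formed oligodendrocytes, was also at 0, Bmp4 was at 0.744 CPM, and Myrf, the factor that switches on myelin genes, was at 4.46 CPM (1.64 to 9.71), with UMIs in 6 members. Mbp, myelin basic protein, was at 23.1 CPM (15.7 to 32.7), an interval that holds the 18.7 CPM (16.5% of barcodes) of excitatory neurons, so that no difference from them was detectable at this depth. The source of these UMIs was not tested. Higher than in the other barcodes were Cnp, an early myelin enzyme, at 72.9 CPM (59.2 to 88.8), and Ugt8a, which makes galactosylceramide, at 33.5 CPM (24.4 to 44.8). Against Olig-positive barcodes without Pdgfra, Ugt8a was called higher and Cnp was not. Against radial glia and astrocytes Cnp was not called, at 0.25 on the log2 scale, and Ugt8a had too few UMIs to be called. Genes of the step to committed precursors were detected as well. Bcas1 was found in 69, at 95.2 CPM (79.4 to 113), Itpr2, a calcium channel of the endoplasmic reticulum, in 67, at 87.8 CPM (72.7 to 105), and Gpr17, a receptor of committed precursors, in 39, at 47.6 CPM (36.7 to 60.8). In excitatory neurons Bcas1 and Gpr17 were at 0.136 and 0.0454 CPM. Of the list of 13 genes for committed precursors and new oligodendrocytes, 5 of 9 measured were higher than in all other barcodes and 1, Rras2, was lower. The 5 were Bcas1, Gpr17, Itpr2, Tcf7l2 and Tns3. Against Olig-positive barcodes without Pdgfra, only Bcas1, Gpr17 and Itpr2 of 8 measured were higher. Against radial glia and astrocytes these and Tmem2 were higher, and Tcf7l2 and Tns3 were lower. Over all genes, 4.05% were higher and 3.34% lower against all other barcodes. The shares were 2.76% and 3.58% against Olig-positive barcodes without Pdgfra, and 8.67% and 9.59% against radial glia and astrocytes.

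**Figure D1:**
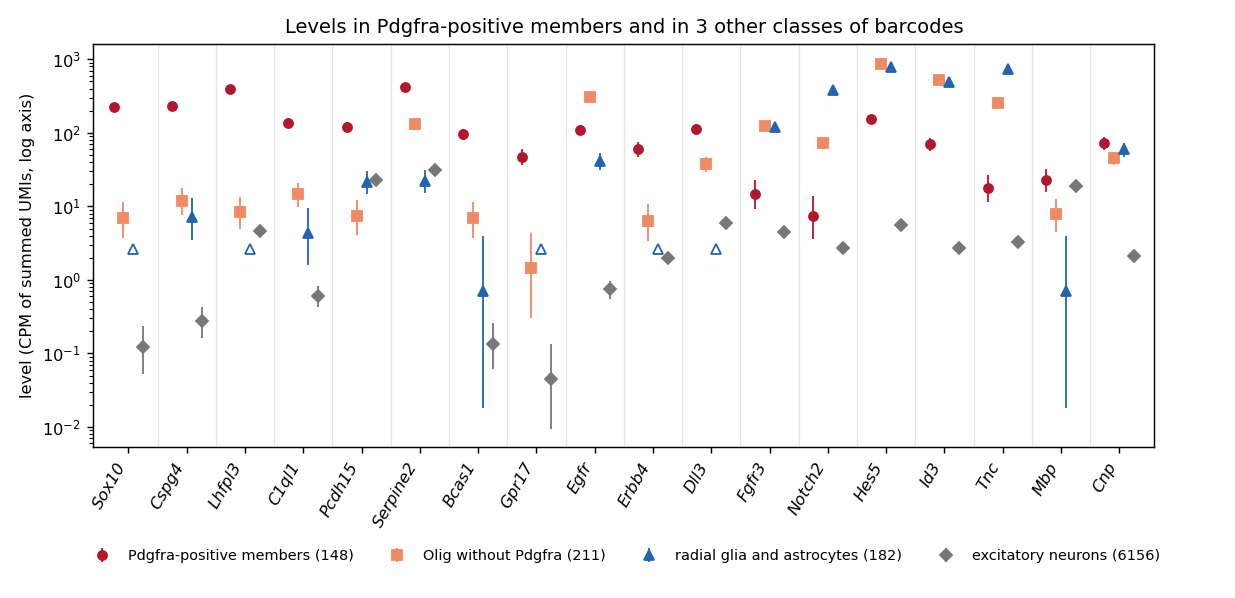
Level in CPM (log axis) of 18 genes in the 148 members, 211 Olig-positive barcodes without Pdgfra, 182 radial glia and astrocytes and 6156 excitatory neurons. Bars are Poisson 95% intervals of the summed UMIs, and an open symbol marks a gene with 0 UMIs, drawn at the upper limit. Sox10 stood at 226 CPM in the members and 6.88 CPM in the Olig-positive barcodes without Pdgfra, while Hes5 stood at 154 and 870.1 CPM.

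The 211 barcodes with at least 2 UMIs of Olig1 and Olig2, no Pdgfra UMI and at most 1 Gad UMI share the lineage factors but not the receptor, and 34.6% of them were dividing. Of 8439 genes compared with them, 233 were higher in the members (2.76%) and 302 were lower (3.58%). Lhfpl3 was again furthest apart, at 391 against 8.36 CPM, followed by Sox10 at 226 against 6.88 CPM (3.76 to 11.5), Cntn1 and Cspg4. Sulf2, an extracellular sulfatase, was 21.9-fold (11.9 to 44.7) higher and Ptpre, a receptor phosphatase, 15.2-fold (9.23 to 26.7) higher. Of 21 measured surface and matrix genes 13 were higher and 2, Ncan and Tnc, were lower. In the transcription factor list only Sox10 and Sox6 passed the fold among 17 genes. The lowest genes in the members were those of radial glia and astrocytes, 17 of 19 measured. Mt3, a metallothionein, was at 95.2 CPM (79.4 to 113) against 1113 CPM, and Aldoc, a glycolytic enzyme of astrocytes, at 55.04 against 481 CPM. Radial glial genes were thus higher in the barcodes without Pdgfra, and most of the surface genes of precursors higher in the members.

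Radial glia and astrocytes were taken as the 182 barcodes with at least 3 UMIs each of Aldoc and Slc1a3 and without Pdgfra or Olig UMIs, and neither dividing barcodes nor those with more than 3 Neurod2 and Neurod6 UMIs were admitted. Against them 673 of 7765 genes were higher in the members (8.67%) and 745 were lower (9.59%). Lhfpl3 and Sox10 had no UMI in the radial glial class, so that the members were at least 181-fold and at least 105-fold higher, set against 3 counts over the class. Apart from Aldoc and Slc1a3, which chose the class, 16 of 18 genes of radial glia and astrocytes were lower in the members. Fabp7, a fatty acid-binding protein, was at 2599 CPM (2514 to 2687) against 20064 CPM (19829.8 to 20301). Apoe was 16.1-fold (14.4 to 17.97) lower and Tnc 41.3-fold (27.6 to 64.8) lower. Sox2 and Sox9, factors of all neural progenitors, were at 303 against 577 CPM and at 416 against 775 CPM and did not pass the fold. All 9 measured pan-neuronal genes were higher in the members than in radial glia. Because the gate on Neurod2 and Neurod6 was set for radial glia alone, and Stmn2 was lower in members without these UMIs, this direction cannot be told apart from the choice of the class. The same holds for the cell cycle genes.

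**Figure D2:**
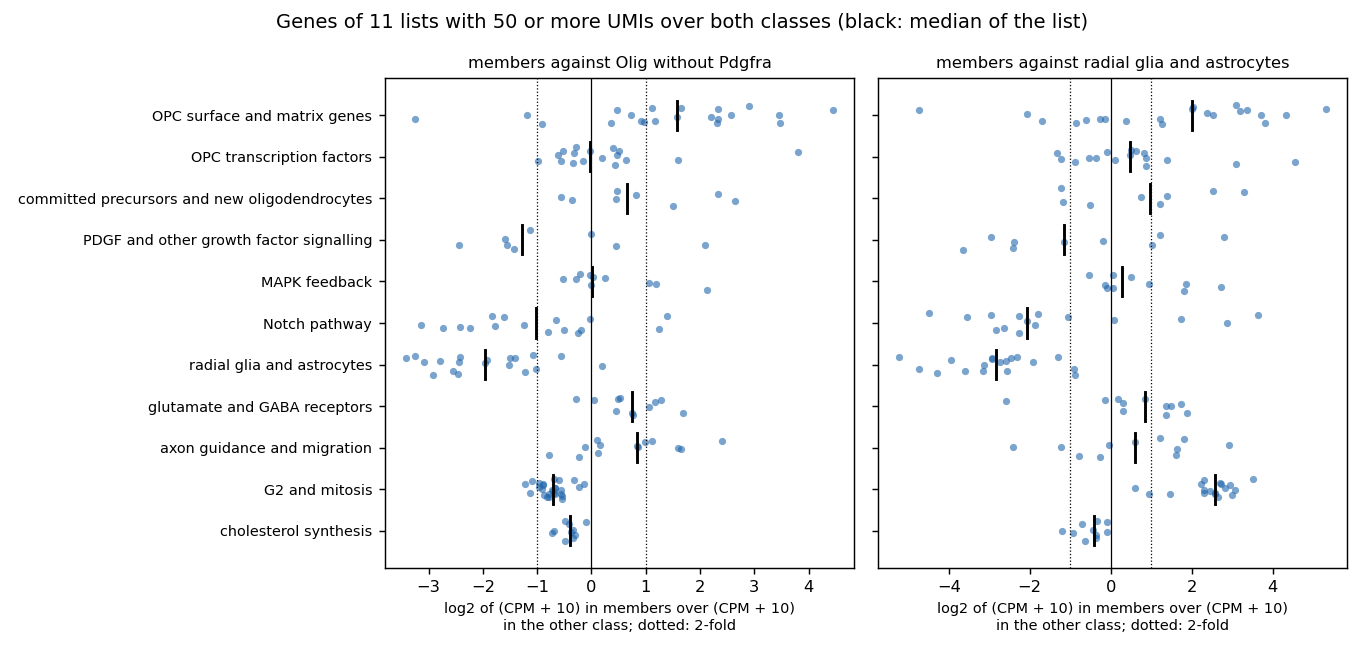
Each point is a gene of 1 of 11 lists with at least 50 UMIs, placed by the log2 ratio of (CPM + 10) of the members to the Olig-positive barcodes without Pdgfra (left) or to radial glia and astrocytes (right), and black bars are list medians. The Notch list had medians of -1.02 and -2.08, and the surface and matrix list of 1.57 and 1.998.

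Receptors for growth factors divided the classes. Pdgfrb, the sister receptor, was at 2.23 CPM (0.460 to 6.52) in the members and 143 CPM in radial glia. Fgfr1, Fgfr2 and Fgfr3, receptors for fibroblast growth factors, were all lower in the members than in both classes, with Fgfr3 at 14.9 CPM (9.09 to 22.98) against 126 CPM in Olig-positive barcodes without Pdgfra. The call for Fgfr1 against these Olig-positive barcodes was lost with the mean of the CPM of single barcodes, at -0.94 on the log2 scale, and without the members that held at least 5 UMIs of Neurod2 and Neurod6, at -0.99. Erbb4, a neuregulin receptor, went the other way, at 59.5 CPM (47.2 to 74.1) against 6.39 CPM, and had no UMI in radial glia. Erbb3 was seen in 5 members and Erbb2 in 0. Egfr, the receptor for epidermal growth factor, was at 109 CPM (92.4 to 129), below the 309.7 CPM (286 to 335) of the Olig-positive barcodes without Pdgfra and above the 40.9 CPM of radial glia. In the 78 members with at least 7 Pdgfra UMIs it was at 36.9 CPM (24.1 to 54.1), and with a line of 3 Pdgfra UMIs the log2 difference from radial glia fell from 1.23 to 0.89, and when thinned to 0.81, both short of 2-fold. Radial glia admitted no dividing barcodes, and Egfr was higher in dividing than in non-dividing members. The part of that gate in the call for Egfr was not tested. Ligands of PDGF receptors were sparse in the members, with Pdgfb and Pdgfd at 0 and Pdgfa, which binds PDGF receptor alpha, at 48.3 CPM (37.3 to 61.6) against 79.9 CPM in excitatory neurons and 18.6 CPM in radial glia. Pdgfc, a further ligand of the same receptor, was lower than in radial glia, at 7.44 against 28.7 CPM. Pdgfa was called higher than in radial glia, at 1.03 on the log2 scale, and fell short of 2-fold in 4 alternatives, the lowest being 0.71 without the members that held at least 5 UMIs of Neurod2 and Neurod6. Of the 17 genes of this list, 2 of 14 measured, Egfr and Erbb4, were higher than in all other barcodes, beside 4.05% of all genes.

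Genes induced by the MAP kinase cascade below such receptors were high in the members. Against all other barcodes 8 of 12 were higher and 0 lower, with a median of 1.66, beside 4.05% of all genes higher. Spry1 and Spry4, feedback inhibitors of the cascade, were 9.11-fold (7.46 to 11.03) and 26.03-fold (18.8 to 35.6) higher. These 2 and Dusp6, the phosphatase of ERK kinases, were also the 3 of 10 that were higher than in Olig-positive barcodes without Pdgfra, Spry1 at 90 CPM (74.7 to 108) against 12.8 CPM and Dusp6 at 39.4 CPM (29.5 to 51.6) against 13.8 CPM. Of these calls against Olig-positive barcodes without Pdgfra, that of Spry4 was lost when thinned, at 0.84 on the log2 scale, and that of Dusp6 with a line of 1 Pdgfra UMI, at 0.99. The same 3 were higher than in radial glia. Over all genes, 2.76% were higher than in Olig-positive barcodes without Pdgfra and 8.67% higher than in radial glia. Etv4, Etv5 and Ccnd1, also targets of the cascade, were at similar levels in members and Olig-positive barcodes without Pdgfra, with Ccnd1, cyclin D1, at 242 and 243 CPM.

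The Notch pathway, which keeps neighbouring progenitors undifferentiated, differed with the class compared. Against all other barcodes, most of them neurons, Dll1, Dll3, Notch1, Hes5 and Lfng, which modifies Notch receptors, were higher among 19 genes and Id2 was lower. Against the other glial classes the ligands Dll1 and Dll3 were higher and the receptors Notch2 and Notch3 lower. Dll1 and Dll3, Notch ligands, were at 69.2 CPM (55.8 to 84.7) and 114 CPM (96.5 to 133) in the members. In Olig-positive barcodes without Pdgfra they were at 23.6 and 37.4 CPM, where the log2 difference of Dll1 fell from 1.24 to 0.26 when thinned, and in radial glia Dll3 had no UMI. Notch2 was at 7.44 CPM (3.57 to 13.7) in the members against 72.3 and 379 CPM in these classes, and Notch3 at 2.98 against 29.5 and 81.8 CPM. Notch1 was at 190.4 CPM against 304 and 404 CPM, called lower against radial glia, a call that was lost in 5 alternatives, at -0.78 on the log2 scale without the members that held at least 5 UMIs of Neurod2 and Neurod6. The effector Hes5 was 5.65-fold (4.89 to 6.56) lower than in Olig-positive barcodes without Pdgfra and 5.07-fold (4.36 to 5.91) lower than in radial glia. Hey2 was at 0. Id1, Id3 and Id4, inhibitors of basic helix-loop-helix factors that BMP signals induce, were lower than in both classes, Id1 at 38.7 CPM (28.9 to 50.7) against 419 CPM. In all, 2 of 16 measured genes of the pathway were higher and 8 lower against the first class, and 3 of 15 higher and 11 lower against radial glia. Over all genes, 2.76% were higher and 3.58% lower against the first class, and 8.67% higher and 9.59% lower against radial glia.

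Receptors and channels for neuronal input were detected at P0. Gria2, the AMPA receptor subunit that limits calcium entry, was at 1086 CPM (1031 to 1143) and was detected in 95.3% of members, with 474 CPM in Olig-positive barcodes without Pdgfra. It remained at 987 CPM in the 82 members without Neurod2 or Neurod6 UMIs, but without the 20 that held at least 5 of them its log2 difference from Olig-positive barcodes without Pdgfra fell from 1.18 to 0.98, short of 2-fold. Grin3a, an NMDA receptor subunit, was at 52.1 CPM (40.6 to 65.8) against 10.1 CPM in excitatory neurons and was higher in the members than in all other barcodes, Olig-positive barcodes without Pdgfra and radial glia. Grin2b, the main NMDA receptor subunit of immature neurons, was at 103 against 408 CPM. Kcnd2, an A-type potassium channel, was 2.44-fold (2.003 to 2.95) higher than in all other barcodes, and Kcnj10, the inward rectifier of glia, was at 59.5 CPM (47.2 to 74.1) against 0.969 CPM in excitatory neurons. Of the 21 receptor genes, 1 was higher and 5 lower than in the other barcodes, most of which were neurons, and the count of higher genes was near the 4.05% over all genes. Dscam, an adhesion molecule, was at 82.6 CPM and Sema5a, a guidance cue, at 40.2 CPM, against 7.37 and 5.90 CPM without Pdgfra. None of 10 genes for cholesterol synthesis passed the fold against all other barcodes, with a median of 0.20, and neither did any of 11 WNT and BMP genes, among them Axin2 at 26.8 CPM, where 4.05% of all genes were higher and 3.34% lower. With lists this short, such counts do not set them apart from other genes. Axin2 and Bmpr1b, a BMP receptor, were lower than in Olig-positive barcodes without Pdgfra, Axin2 against 85.5 CPM, and Bmpr1a and Bmpr1b lower than in radial glia, as was Hmgcs1 of cholesterol synthesis. Of the genes the study turned to, Glo1, a glyoxalase, was at 86.3 CPM (71.3 to 103) against 265 CPM in radial glia, Hopx, a marker of outer radial glia, at 14.1 against 283 CPM, S100b at 13.4 CPM, and Serpina3n was at 0. Hagh, a further enzyme of the glyoxalase system, was at 35.7 CPM.

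Among the 148 members, 28 held at least 3 UMIs of Top2a, Mki67 and Cenpf, genes transcribed from S phase to mitosis, and are called dividing. That share was 18.9% (12.96 to 26.2), against 2.67% in the other barcodes and 34.6% in the Olig-positive barcodes without Pdgfra. Depth bears on it. Thinned to 2000 UMIs each, 16 of 145 members met the line, or 11.03% (6.44 to 17.3), against 20.6% without Pdgfra. The counts were skewed, with 0 UMIs of the 3 genes in 101 members, 1 or 2 in 19, 3 to 10 in 9 and more than 10, up to 171, in 19. Dividing members had a median of 12336 UMIs and the 120 non-dividing ones 7478. Sox10 or Cspg4, the genes that checked the label, were found in 12 of the 28 dividing and 108 of the 120 non-dividing members. The dividing share thus rests in large part on members that carry the name by the rule alone. Scrublet marked 25% of the dividing (10.7 to 44.9) and 8.33% of the non-dividing members. The part of doublets in the differences between them was not tested, and values without the marked barcodes follow.

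Dividing and non-dividing members differed in more than the cell cycle. Of 5019 genes, 188 were higher in dividing members (3.75%) and 215 were lower (4.28%). The highest were, as the choice by cycle genes fixes, those of mitosis and S phase, 17 of 17 measured and 10 of 11, with Ube2c at 547 CPM (472 to 630.4) against 3.01 CPM. Outside the lists of mitosis, S phase and cyclins, Egfr was at 223 CPM (177 to 279) in dividing and 69.3 CPM (53.9 to 87.7) in non-dividing members, 3.22-fold (2.30 to 4.52) higher. Ccnd2, cyclin D2 and itself a cycle gene, was at 1584 against 454 CPM. Hes6, a Hes factor that opposes Hes1, was at 306 against 145 CPM. Dlx1 and Dlx2, homeobox factors of ventral forebrain progenitors, were at 178 CPM (136 to 228) against 35.2 CPM (24.5 to 48.9) and at 112 CPM (79.4 to 153) against 29.1 CPM (19.5 to 41.8). Gsx2, a further factor of the ganglionic eminences, was at 51.6 CPM (30.6 to 81.5) against 12.1 CPM (6.23 to 21.1), with too few UMIs over both classes to be called. In the list of forebrain position factors 3 of 6 measured were higher in dividing members, Dlx1, Dlx2 and Pax6. Pax6 also stands in the list of radial glia and astrocytes. Dlx5, Dlx6 and Dlx6os1 had no UMI in dividing members, where 3 counts are 8.59 CPM. Dlx6 had none in the non-dividing members either.

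Genes of precursor identity were lower in dividing members. Sox10 was at 103 CPM (72.2 to 143) against 269 CPM (238 to 304), 2.61-fold (1.84 to 3.81) lower, and Cspg4 at 68.7 CPM (44.05 to 102) against 286 CPM (254 to 322), 4.17-fold (2.74 to 6.61) lower. Lhfpl3 was 5.07-fold (3.58 to 7.40) lower, with a lowest, median and highest value of 0, 0 and 8 UMIs in dividing and a lowest, median and highest value of 0, 3 and 14 UMIs in non-dividing members. The values of both groups overlapped for each of these genes. In all, 13 of 20 measured surface and matrix genes were lower and 0 higher, with a median of -1.37 against -0.06 over all genes. Over all genes 4.28% were lower and 3.75% higher. C1ql1 was at 17.2 against 179.9 CPM and Pcdh15 at 14.3 against 157 CPM. Bcas1, Gpr17 and Itpr2 of the committed step were lower too, Bcas1 at 20.1 CPM (8.06 to 41.3) against 122 CPM (101 to 145) and Gpr17 at 2.86 against 63.3 CPM. Of the receptors, Gria2, Gria3 and Erbb4 were lower in dividing members, Erbb4 at 22.9 against 72.3 CPM, and Spry1 was 4.95-fold (2.43 to 11.8) lower. Pdgfra, part of the rule, stood at 438 and 987 CPM.

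These directions were also seen with counts thinned to equal depth and without the barcodes that Scrublet marked. In the thinned counts the dividing members were still those chosen on their full counts. Thinned to 2000 UMIs, Sox10 was detected in 17.9% of 28 dividing and 47.01% of 117 non-dividing members, where the unthinned shares were 39.3% and 80.8%. Cspg4 was detected in 10.7% and 35.9% after thinning, from 32.1% and 70.8%. Without the members that Scrublet marked, the log2 difference of dividing against non-dividing members was -1.15 for Sox10, -1.75 for Cspg4, 1.26 for Egfr and 2.31 for Dlx1, beside -1.30, -1.91, 1.56 and 2.05 with them. Over all alternatives tried, Dlx1 ranged from 1.55 to 2.41 and Cspg4 from -2.04 to -1.02, whereas Sox10 came as close to 0 as -0.90 when thinned and -0.96 with a line of 3 Pdgfra UMIs, both short of 2-fold. Hes6 was at 1.03 and came down to 0.26 when thinned.

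**Figure D3:**
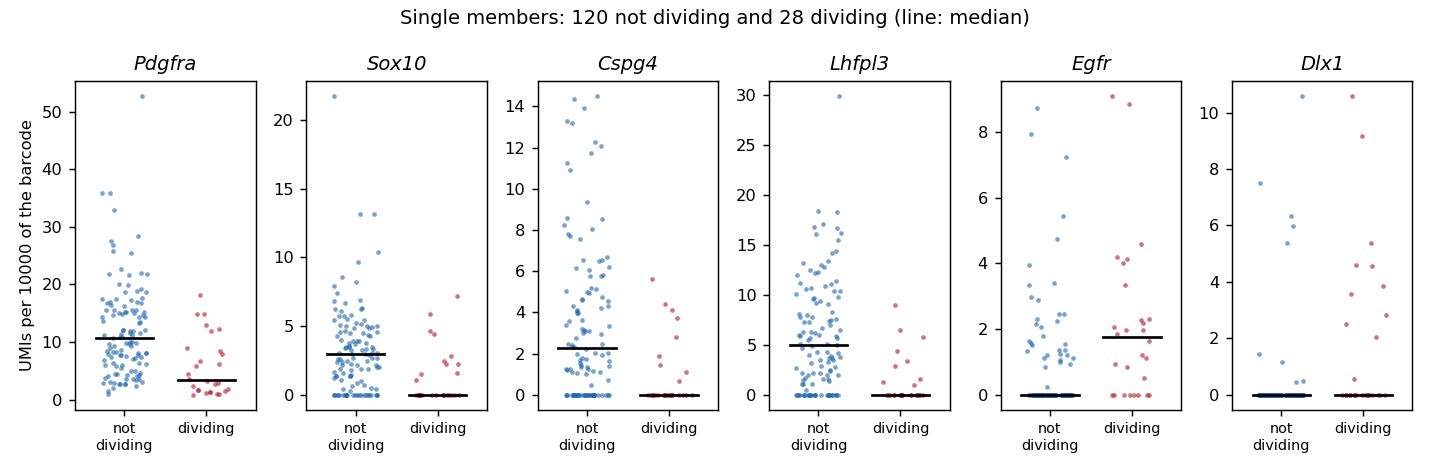
UMIs per 10000 of the barcode for 6 genes in each of the 120 non-dividing (left, blue) and 28 dividing (right, red) members, with the median as a line. The ranges overlap for every gene, and the median of Sox10, Cspg4 and Lhfpl3 was 0 in dividing members.

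**Figure D4:**
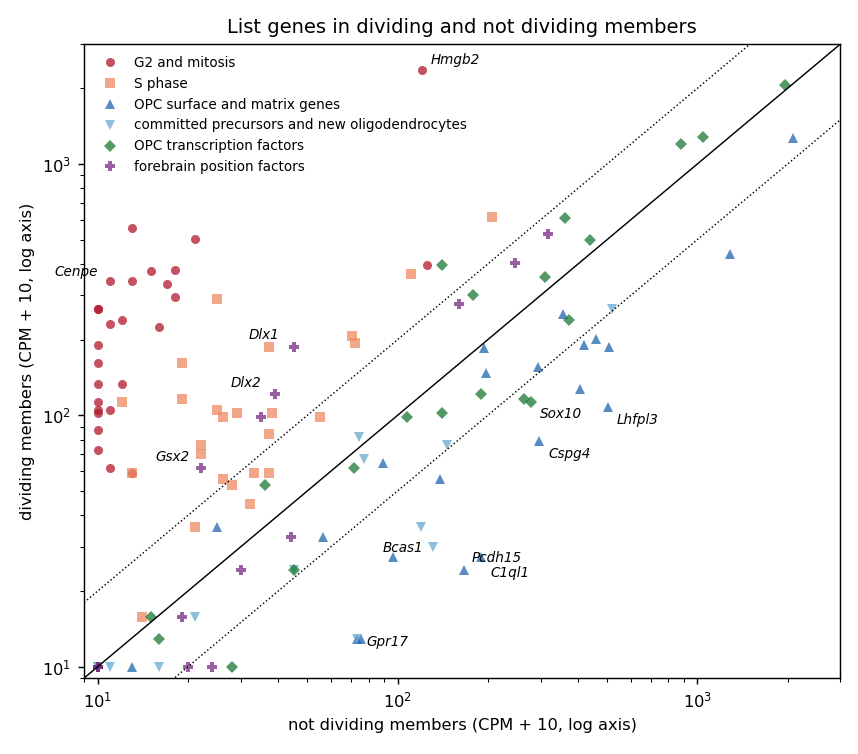
Level (CPM + 10, both axes on a log scale) of the genes of 6 lists in non-dividing (x) and dividing (y) members, with the line of equal level and dotted lines at 2-fold. Dlx1 lies above the upper dotted line and Sox10, Cspg4, Lhfpl3 and C1ql1 below the lower one.

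Sox10 or Cspg4 was found in 12 of 28 dividing members, or 42.9% (24.5 to 62.8), and in 108 of 120 non-dividing ones, or 90% (83.2 to 94.7), although dividing members were deeper. Dlx1 and Dlx2 summed to at least 2 UMIs in 17 members, a line set after the values were seen. Of these 17, 11 were dividing, or 39.3% (21.5 to 59.4) of the dividing members, and 6 were not, or 5.0% (1.86 to 10.6) of the others. They rarely held precursor genes, with a Sox10 UMI in 2 of 17, Lhfpl3 in 1, Bcas1 in 1 and Cspg4 and Gpr17 in 0. In the same 17, Egfr was found in 14, Dll3 in 12 and Gsx2 in 7. Scrublet marked 5 of the 17. The rule on Gad1 and Gad2 had removed a further 13 barcodes with Pdgfra and Olig UMIs, and 7 of those were dividing. Other factors of forebrain position were found in few members. Nkx2-1, of the most ventral progenitors, was found in 9 members, of which 8 held Cspg4 and 0 held Dlx1 or Dlx2, and Gsx1 in 11, of which 8 held Cspg4 and 2 held Dlx1 or Dlx2, beside 94 and 24 of all 148 members. Both lay outside the dividing members. Emx1, a factor of the dorsal cortex, was found in 29 members, at 31.2 CPM (22.5 to 42.2) against 78.9 CPM in excitatory neurons.

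These levels also differed with the number of Pdgfra UMIs, the value that chose the members, so the following is a description of the rule and of its edge. From the 21 members with 2 UMIs through the 14 with 3 and the 35 with 4 to 6 to the 78 with at least 7, Cspg4 was at 30.8, 66.4, 129.6 and 365 CPM. Lhfpl3 was at 52.9, 118, 238 and 612 CPM. Egfr ran the other way, at 233, 229, 133 and 36.9 CPM. Dlx1 went from 255 CPM (194 to 330.2) to 4.26 CPM (0.879 to 12.5). In the 23 barcodes just outside, with 1 Pdgfra UMI, Sox10 was at 55.9 CPM (28.9 to 97.7) and Lhfpl3 at 27.97 CPM. The dividing share in the 4 groups of members was 42.9, 50, 8.57 and 11.5%, and Scrublet marked 23.8, 21.4, 11.4 and 6.41% of them.

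**Figure D5:**
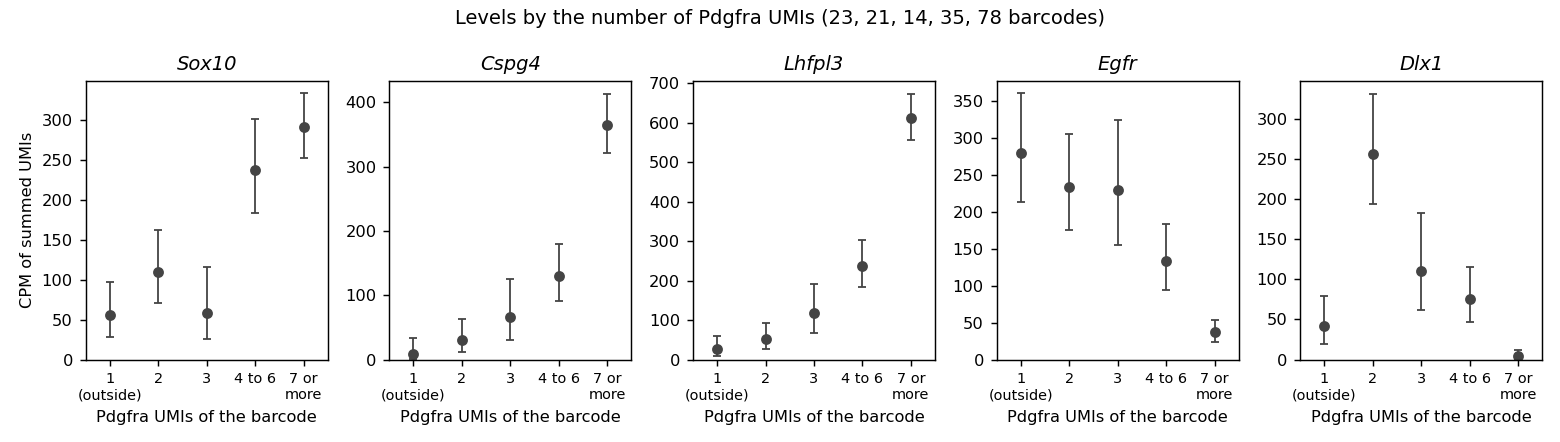
Level in CPM, with Poisson 95% intervals, of 5 genes by the number of Pdgfra UMIs in the barcode: 23 barcodes outside the rule with 1 UMI, and 21, 14, 35 and 78 members. Sox10, Cspg4 and Lhfpl3 were highest, and Egfr and Dlx1 lowest, in the members with at least 7 UMIs.

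Members were last split by Sox10 at equal depth. Thinned to 2000 UMIs, 60 members kept a Sox10 UMI, 85 did not, and 3 were too shallow. Of those 85, 46 held a Sox10 UMI in their full counts, so the split separates higher from lower Sox10 and not cells with from cells without it. Of 5001 genes, 63 were higher where a Sox10 UMI was kept (1.26%) and 110 were lower (2.2%). Without the members marked by Scrublet 33 were higher and 76 lower. Gpr17 was at 99.1 CPM (72.3 to 133) where it was kept and 21.4 CPM (12.9 to 33.5) in the 85, Cspg4 at 394 and 142 CPM, and Npas1, a bHLH-PAS repressor, at 110.1 and 29.4 CPM. The log2 difference of Cspg4 was 1.41 and fell to 0.98, short of 2-fold, both without the members that Scrublet marked and without those that held at least 5 UMIs of Neurod2 and Neurod6. In the list of surface and matrix genes 10 of 20 were higher and 0 lower, with a median of 0.996. Cnp was at 115 against 51.9 CPM, a difference of 1.01 on the log2 scale that fell short of 2-fold in 6 alternatives. The 85 were higher in 15 of 17 genes of mitosis, in Dlx1, at 108 CPM (87.8 to 132) against 0, and in Stmn2, at 694 against 198 CPM. They were dividing in 27.1% and marked by Scrublet in 17.6%, against 8.33% and 3.33% of the 60. Among non-dividing members alone, an alternative added after the data were seen, 28 genes were higher and 29 lower. There the log2 difference of the mitotic gene Ube2c was -0.11, that of Cnp 0.68, that of Stmn2 -1.99 and that of Dlx1 -2.77. Over all members but those that held at least 5 UMIs of Neurod2 and Neurod6, that of Stmn2 was -0.15.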

How the data were processed

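Single-cell transcriptomes of P0 wildtype cerebral cortex were made with the 10x Chromium 3′ kit v3.1. The deposited table holds raw UMI counts per gene and barcode that the authors made with Cell Ranger. The submitters' processing notes name Cell Ranger 2, STAR, Seurat and build mm9, and the study's methods give no version. The table listed 51912 genes, and the sum of each barcode's counts matched its deposited total in all 11062 barcodes. Doublets and free RNA had not been removed as far as the sources say.

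Members and classes were gated on counts in barcodes with at least 1000 genes. CPM left out the 37 mitochondrial genes and carry exact Poisson intervals, shares exact binomial (Clopper-Pearson) intervals, and ratios the exact interval of the conditional share, all at 95%. A class at 0 was set to 3 counts for a lower bound. PCR duplicates are merged by UMI, and intervals cover counting error only. Doublets were called with Scrublet (scanpy 1.11.5) and kept, and left out as an alternative. Genes named were those of 27 lists (354 genes) and the 30 highest and 15 lowest against all others, 10 and 10 against each other class and in the Sox10 split, and 15 and 15 in dividing members, detected in at least 25% of the higher class. Members and lists were chosen with earlier results of these data known. Some genes that met these rules are not reported here. The code for ratios and calls was tested on simulated counts, where some unchanged genes also passed the fold at the sizes of dividing and non-dividing members. No test was run because there was 1 library. Python 3.11.15, NumPy 2.4.6, SciPy 1.17.1 and pandas 2.3.3 were used.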

Additional observations from a re-analysis of the deposited data

Results flagged for a closer look

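In barcodes with fewer than 1000 detected genes, which entered no comparison, 6 met the other conditions on Pdgfra, Olig and Gad UMIs. They held 893 to 1426 UMIs, with a median mitochondrial share of 12.7% against 2.87% in the members. They were listed because their Pdgfra lies outside the data compared, and whether they are damaged precursors was not tested.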

How the results depend on the processing

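No paired analysis was possible because the data are 1 library. The share of members stayed between 1.41 and 1.90% in the 5 alternatives tried. With a Pdgfra line of 3 UMIs 64 genes were lower in the Sox10 split. Without the barcodes that Scrublet marked 33 were higher there, and without members holding at least 5 Neurod2 and Neurod6 UMIs 34, while 927 genes were then lower against all other barcodes. Thinned to 2000 UMIs, where fewer genes reach 50 UMIs, the dividing share was 11.03%, 903 genes were lower against all others, and higher and lower counts were 114 and 173 against Olig-positive barcodes without Pdgfra, 199 and 336 against radial glia and astrocytes, 41 and 67 in dividing members and 15 and 14 in the Sox10 split. With 1 CPM added in place of 10, 1740 and 1952 genes passed against all others and 396 and 477 against Olig-positive barcodes without Pdgfra. From 10 UMIs in place of 50, 481 and 568 passed in dividing members and 168 and 281 in the Sox10 split. Calling members dividing from 1 UMI gave a share of 31.8% and 60 lower genes. In non-dividing members alone the Sox10 split had 28 and 29. Of the genes named that were past 2-fold, list members included, 0 turned direction against all others, against Olig-positive barcodes without Pdgfra and in dividing members. Without members holding at least 5 Neurod2 and Neurod6 UMIs, Gabra2 against radial glia turned to -0.016 and Npy in the Sox10 split to 0.14, and Npy was at 0.037 when thinned. Among non-dividing members alone, where few mitotic UMIs remain, Birc5, Kif23, Top2a and Tpx2 turned to 0.37, 0.087, 0.055 and 0.38 in the Sox10 split. Of all pairs of a gene and a setting, 64 of 1936 fell below 2-fold against all others, 20 of 900 against Olig-positive barcodes without Pdgfra, 63 of 1420 against radial glia, 52 of 912 in dividing members and 84 of 671 in the Sox10 split. Among the classes compared depth limits the 28 dividing members most, where 3 counts are 8.59 CPM, and in the 14 members with 3 Pdgfra UMIs they are 22.1 CPM.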

Other observations

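Values outside the comparisons are given here without explanation. The 13 barcodes with Pdgfra and Olig UMIs that the Gad line removed held a median of 10261 UMIs, 7 of them were dividing, and Scrublet marked 2. In the 11 barcodes with at least 2 Pdgfra UMIs, at most 1 Gad UMI and no Olig UMI, the median was 3635 UMIs, 3 were dividing and 0 were marked. Of the 57 dividing barcodes without Pdgfra, Olig or Gad lineage counts, 1 was marked as a doublet.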
